A study of Mus musculus with 8 samples.

Results

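The genes of DNA replication and the S phase, the part of the cell cycle in which the genome is copied, were followed here in natural killer (NK) cells of mouse spleen. A set of 46 genes was named by symbol. Their values did not enter the rule, but earlier results of these data were known when the set was chosen. All 46 were found among the 54838 gene identifiers counted in each library. Poly(A) RNA was sequenced in 8 libraries, to ask how NK cells of mice with tumours differ in expression from those of healthy donors. The teNK group (4 libraries) came from MMTV-PyMT mice, which carry the polyoma virus middle T oncogene under a promoter active in mammary epithelium and develop mammary tumours. The hNK group (4 libraries) came from healthy WT FVB/n mice. In both groups, cells were sorted as CD45+/CD49b+/CD3- and then kept for 12 to 16 h in a medium with added cytokines before the RNA was taken. The sources used here do not name ages, the cytokines, the background strain of MMTV-PyMT mice or how many mice made up a library. No label says that replicates are separate mice, so p-values cover the spread between libraries alone, and that spread can be technical.

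DNA replication starts when the MCM helicase is loaded onto origins by CDC6 and CDT1 and is then switched on with CDC45 and the GINS complex. Primase and the DNA polymerases copy the strands, held in place by the PCNA clamp, while ribonucleotide reductase and its partner enzymes supply the deoxynucleotides. Entry into S phase is driven by cyclin E with CDK2 and by E2F transcription factors, which switch on many of these genes; resting NK cells divide little, and cytokines such as IL-2 and IL-15 bring them into cycle.

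E2F motifs, the letters that E2F factors are known to bind, stand close to the start of several of these genes, and promoters are shown for that reason. In each role that had one, the called gene with the largest change among those whose window held the motif was taken, and 1 called gene without it was added. Promoter windows of 300 bases (250 before to 50 after the annotated start, RefSeq, GRCm38.p6) were found for 38 of the 46 genes by symbol. The motif was searched on both strands as TTTGGCGC, TTTCGCGC, TTTCCCGC or TTTGCCGC, and it was in 15 of the 38 genes (39.5%) and in 34.9% of their 43 windows, against 2.27% of all 32851 windows. The letters CCAAT, bound by the factor NF-Y, were in 55.8% of the 43 windows and 37.4% of all windows. The CHR element, searched as TTTGAA or TTCGAA, was in 18.6% of the 43 windows and 19.2% of all windows. None of the E2F strings contains CCAAT or a CHR string. E2F letters are in capitals in each printed window, written 5′ to 3′ on the strand of the gene. The E2f2 window (chr4:136172024-136172323, + strand, 1 of 2 windows of the gene) held the motif at base 40, counted with the RefSeq start as base 1. This whole window lies before the GENCODE start of E2f2 (136172394), so the 2 annotations disagree on the start. The Clspn window (chr4:126556730-126557029, + strand) held the motif at base 22, and the Pola1 window (chrX:93632106-93632405, - strand) at base -138, before the start. The Mcm3 window (chr1:20820263-20820562, - strand) held 2 matches, at bases 20 and 39. The E2f8 window (chr7:48881547-48881846, - strand) belongs to the called gene with the largest change among those in which none of the 4 strings was found.
E2f2: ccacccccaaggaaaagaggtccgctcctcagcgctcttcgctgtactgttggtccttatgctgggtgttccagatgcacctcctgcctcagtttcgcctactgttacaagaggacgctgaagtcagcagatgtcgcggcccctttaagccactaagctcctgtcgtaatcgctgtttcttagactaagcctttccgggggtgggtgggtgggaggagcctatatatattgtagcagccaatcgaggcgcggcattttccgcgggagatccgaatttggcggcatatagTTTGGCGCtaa
Clspn: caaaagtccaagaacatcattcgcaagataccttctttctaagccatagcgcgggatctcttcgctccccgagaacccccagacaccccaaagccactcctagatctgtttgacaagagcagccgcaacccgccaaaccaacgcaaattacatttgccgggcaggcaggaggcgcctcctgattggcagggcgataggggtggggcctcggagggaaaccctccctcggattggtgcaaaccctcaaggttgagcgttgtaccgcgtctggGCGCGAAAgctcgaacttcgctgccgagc
Pola1: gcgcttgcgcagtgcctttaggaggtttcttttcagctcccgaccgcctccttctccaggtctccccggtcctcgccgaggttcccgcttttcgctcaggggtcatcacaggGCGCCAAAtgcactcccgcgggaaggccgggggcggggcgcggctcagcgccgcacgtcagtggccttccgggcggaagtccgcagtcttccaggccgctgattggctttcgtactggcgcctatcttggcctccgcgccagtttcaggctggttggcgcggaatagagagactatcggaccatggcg
Mcm3: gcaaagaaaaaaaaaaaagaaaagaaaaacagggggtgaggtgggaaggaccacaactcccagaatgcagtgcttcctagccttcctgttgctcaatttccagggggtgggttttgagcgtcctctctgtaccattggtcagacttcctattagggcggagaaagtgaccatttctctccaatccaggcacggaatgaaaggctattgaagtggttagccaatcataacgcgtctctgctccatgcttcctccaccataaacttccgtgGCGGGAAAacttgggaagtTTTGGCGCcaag
E2f8: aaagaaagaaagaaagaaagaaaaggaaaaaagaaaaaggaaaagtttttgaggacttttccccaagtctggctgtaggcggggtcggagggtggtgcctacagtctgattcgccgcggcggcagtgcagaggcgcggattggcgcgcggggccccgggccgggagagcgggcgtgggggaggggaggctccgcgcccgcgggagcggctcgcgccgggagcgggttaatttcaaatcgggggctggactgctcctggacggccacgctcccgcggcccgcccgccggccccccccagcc
Genes with and without the letters both included genes that rose: of the 15 genes with a match 5 were called higher and 0 lower (median log2 fold change 0.04), and of the 23 without a match 10 were called higher and 1 lower (median 0.17). Over all genes tested, 26.4% were called higher and 25.6% lower; the difference between genes with and without a match was not tested. A match describes the letters of a window and is no evidence of binding.

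Reads on genes numbered 13111043 to 16209895 in teNK and 5202131 to 12419324 in hNK. The hNK group was uneven in depth, with 11395122 and 12419324 reads in replicates 1 and 2 and 5800098 and 5202131 in replicates 3 and 4. All 46 genes passed the filter on low counts, and the lowest count in any library was 8 reads. Levels are given as CPM, read counts scaled to library size with TMM factors, or as RPKM, the same per kilobase of all annotated exons of a gene. RPKM allows a rough comparison between genes, which depends on the annotated exon length. Calls were made where the adjusted p was below 0.05 in edgeR's quasi-likelihood test with Benjamini-Hochberg adjustment over 13903 genes. Lists of 4 values give replicates 1 to 4 in that order. The SE follows each log2 fold change (teNK over hNK) after ±. In whole-population RNA, more cells in S phase and more RNA per cell cannot be told apart.

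Of the 46 replication genes, 17 were called higher in teNK and 1, Chaf1b, lower, while 28 were not called. The share called higher was 37.0% (26.4% of all genes tested), and the share called lower was 2.17% (25.6% of all genes). Of the 46, 6 were called and at least 2-fold higher, which is 13.04% (8.28% of all genes). In 12 genes (26.1%) every teNK library was above every hNK library, a share close to the 24.1% over all genes, so it says nothing particular about replication genes. In 1 gene (2.17%) every teNK library was below every hNK library (22.4% over all genes). The median log2 fold change was 0.16 for the 46 genes and -0.02 for all genes tested, and 35 of the 46 values were above 0. Changes were largest among the low-abundance regulators of S phase entry and smaller among most abundant parts of the replication machine, with the exception of Pcna, the most abundant gene of all, which rose 1.69-fold.

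**Figure D1:**
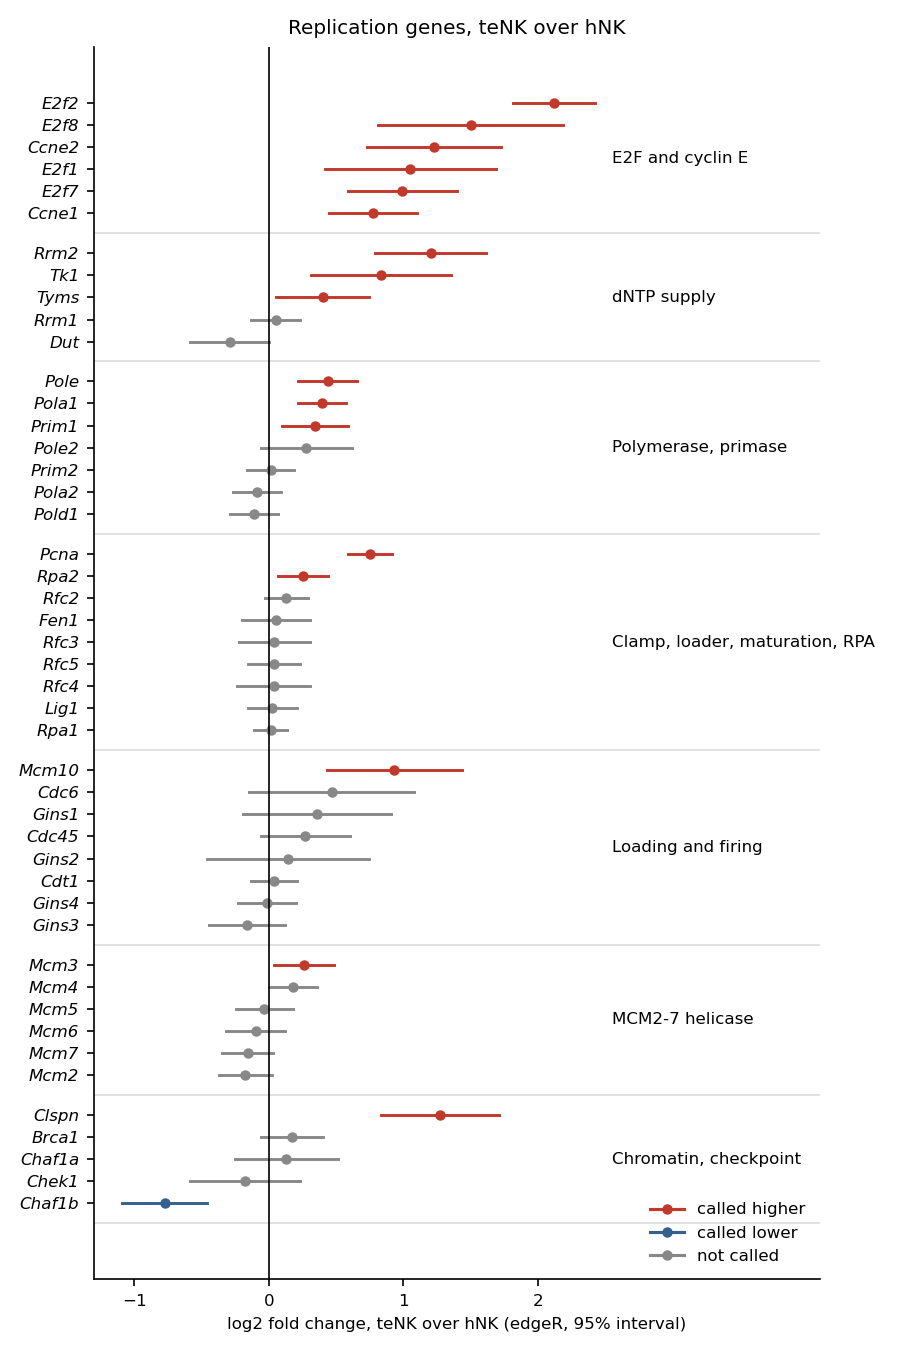
Log2 fold change of teNK over hNK for the 46 replication genes (points, edgeR) with 95% intervals (bars), grouped by role. All 6 E2F and cyclin E genes lie to the right of 0, most helicase, clamp loader and GINS genes straddle 0, and Chaf1b lies to the left.

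Libraries within a group did not carry these genes evenly, and this touches every count above. The 46 genes summed to 1586, 1576, 1818 and 1674 CPM in teNK replicates 1 to 4, against 1347, 1370, 1634 and 1548 CPM in hNK replicates 1 to 4, and the groups overlapped. teNK replicate 3 was above its group mean in 40 of the 46 genes, and in 50.3% of all genes tested. hNK replicates 3 and 4, the shallower ones, were above their group mean in 38 and 34 of the 46 genes, and hNK replicates 1 and 2 in 11 and 7. Over all genes tested the 4 hNK libraries were above their mean in 49.7% to 51.4%. Set against hNK replicates 1 and 2 alone, 22 of the 46 genes were called higher and 1 lower (23.8% and 22.7% of all genes in that comparison), with Mcm4, Cdc6, Gins1, Pole2 and Chaf1a gained. Set against hNK replicates 3 and 4 alone, 10 were called higher and 7 lower (22.7% and 21.1% of all genes). The 7 lower ones were Mcm2, Mcm5, Mcm6, Mcm7, Dut, Chaf1b and Chek1, and the calls of Mcm3, Mcm10, E2f1, Tyms, Tk1, Prim1 and Rpa2 were lost. With every library thinned to 5202131 reads, 13 genes were called higher, and Mcm2 and Chaf1b lower (24.7% and 23.8% of all genes), so the share called higher then lay near that over all genes. These 2 splits of hNK were chosen after the libraries had been seen. The part that depth plays in the difference between hNK libraries was not tested beyond this.

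The E2F and cyclin E genes, which include activators and repressors of S phase genes, rose throughout. All 6 of E2f1, E2f2, E2f7, E2f8, Ccne1 and Ccne2 were called higher (26.4% of all genes tested), with a median log2 fold change of 1.14. Their summed level was 60.0 ± 7.61 CPM in teNK and 23.0 ± 6.15 CPM in hNK (SD, n = 4 each), with 52.6 to 70.6 CPM in teNK libraries against 16.5 to 30.7 CPM in hNK libraries. E2f2 (ENSMUSG00000018983, chr4:136172394-136196057, + strand, GRCm38), one of the activating E2F factors, had 21.2, 22.7, 30.4 and 25.4 CPM in teNK, against 6.32, 4.69, 5.94 and 6.14 CPM in hNK. Every teNK library was above every hNK library, and the log2 fold change was 2.12 ± 0.14 (4.36-fold, adjusted p = 2.98e-09). It had 5.10 RPKM in teNK, the highest of the 6, and 1.18 RPKM in hNK, where Ccne1 was higher at 1.79 RPKM. E2f8 (chr7:48866429-48881596, - strand), an atypical E2F that represses E2F targets late in S phase, had 7.17, 8.70, 11.4 and 8.10 CPM in teNK, against 1.91, 1.35, 6.10 and 5.06 CPM in hNK. The libraries did not overlap, although hNK replicates 3 and 4 stood well above hNK replicates 1 and 2, and the log2 fold change was 1.5 ± 0.32 (adjusted p = 9.77e-04). It was 2.43 against hNK replicates 1 and 2 alone and 0.65 against hNK replicates 3 and 4 alone. The other atypical member, E2f7, had 5.50 to 6.92 CPM in teNK and 2.35 to 3.96 CPM in hNK, with no overlap, and rose 1.99-fold (log2 0.99 ± 0.19, adjusted p = 3.70e-04).

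Cyclin E, the partner of CDK2 at the start of S phase, is encoded by a pair of genes, and both rose. Ccne2 had 7.11 to 9.56 CPM in teNK and 2.38 to 6.27 CPM in hNK, a log2 fold change of 1.23 ± 0.23. Ccne1 had 7.18 to 8.60 CPM in teNK and 4.16 to 5.96 CPM in hNK, a log2 fold change of 0.77 ± 0.16. Neither overlapped between the groups, and the ratio of Ccne2 to Ccne1 per kilobase, 0.793 ± 0.116 in teNK and 0.611 ± 0.284 in hNK (SD, n = 4 each), did not differ beyond the spread (exact permutation p = 0.286, adjusted over 5 ratios 0.357). E2f1, the best known activator of S phase genes, had 3.16 to 5.06 CPM in teNK and 1.11 to 3.79 CPM in hNK. Its groups overlapped in hNK replicate 3, and the log2 fold change was 1.05 ± 0.30 (adjusted p = 0.00749), or 1.42 without hNK replicate 3 and 0.79 without hNK replicate 2. Against hNK replicates 3 and 4 alone, E2f1 was the 1 gene of the 6 no longer called (log2 fold change 0.59), and after thinning to equal depth all 6 were called.

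**Figure D2:**
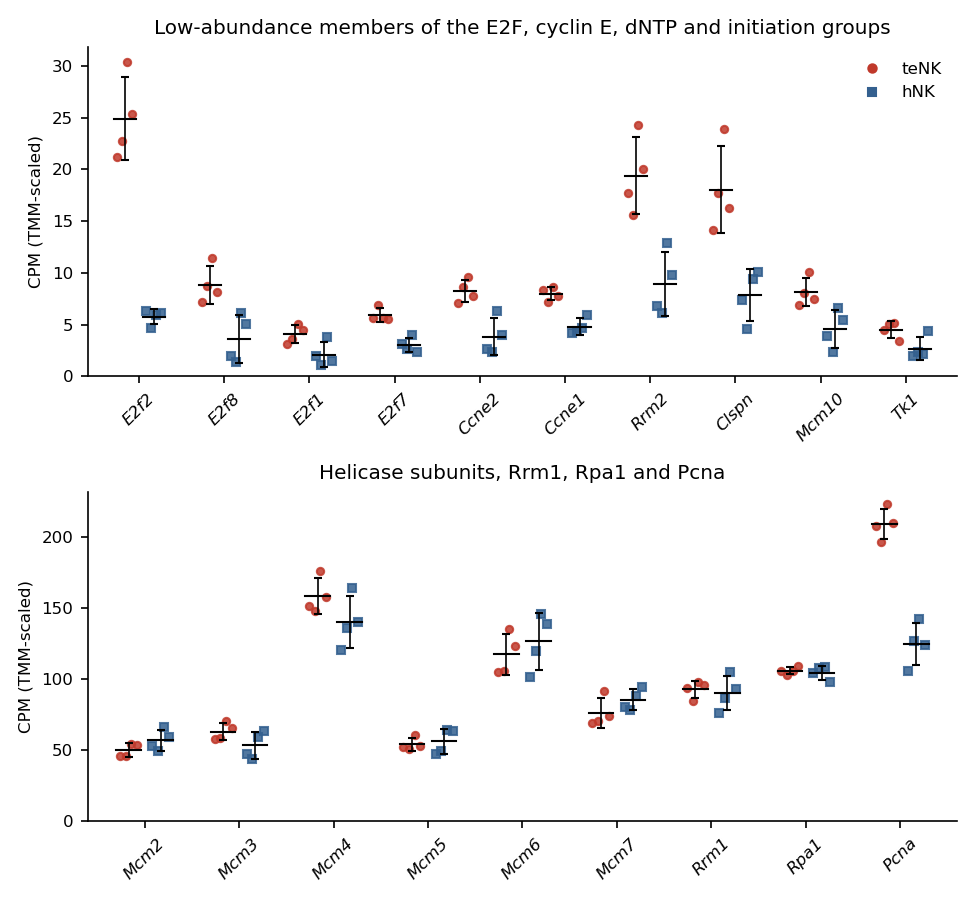
CPM in each library (teNK circles, hNK squares) for low-abundance regulators and enzymes (upper axes) and for abundant replication genes (lower axes), with the mean and SD of 4 libraries as line and bars. E2f2 separates widely at 21.2 to 30.4 CPM in teNK against 4.69 to 6.32 CPM in hNK. Pcna separates at 197 to 223 CPM in teNK against 106 to 142 CPM in hNK. The values of Mcm2 to Mcm7 and of Rpa1 overlap.

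Enzymes of deoxynucleotide supply divided: Rrm2, Tk1 and Tyms rose, while Rrm1 and Dut were not called. Of these 5 genes, 3 were called higher and 0 lower (26.4% and 25.6% of all genes tested). Rrm2 (chr12:24708241-24714146, + strand), the small subunit of ribonucleotide reductase that is made in S phase and then destroyed, had 17.7, 15.6, 24.3 and 20.02 CPM in teNK, against 6.82, 6.11, 12.9 and 9.76 CPM in hNK. All teNK values lay above all hNK values, with a log2 fold change of 1.20 ± 0.19 (2.30-fold, adjusted p = 6.96e-05). Rrm1, the large and stable subunit of the same enzyme, had 93.4, 84.3, 97.8 and 95.8 CPM in teNK, against 76.2, 86.6, 105 and 92.7 CPM in hNK. These values overlapped, and the log2 fold change of 0.05 ± 0.09 had a 95% interval of -0.13 to 0.23. Within a library, the ratio of Rrm2 to Rrm1 per kilobase was 0.753, 0.733, 0.989 and 0.830 in teNK, against 0.356, 0.281, 0.486 and 0.418 in hNK. Each teNK ratio was above each hNK ratio (exact permutation p = 0.0286, the smallest that 4 against 4 allows; 0.0714 adjusted over 5 ratios, so short of the threshold).

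Tk1, the thymidine kinase of the salvage route, had 4.48, 5.02, 5.14 and 3.36 CPM in teNK, against 1.91, 2.30, 2.14 and 4.34 CPM in hNK. hNK replicate 4 overlapped with teNK, and the log2 fold change was 0.83 ± 0.25 (adjusted p = 0.00951). Its counts were low, at 255 reads over the 4 teNK libraries and 89 over the 4 hNK libraries, and against hNK replicates 3 and 4 alone it was not called (log2 fold change 0.49). Tyms, thymidylate synthase, had 8.25 to 8.76 CPM in teNK and 4.82 to 8.85 CPM in hNK, a log2 fold change of 0.40 ± 0.16 close to the threshold (adjusted p = 0.0489). Without any 1 library other than hNK replicate 4, Tyms was no longer called, nor was it in DESeq2 (adjusted p = 0.0716), with the replicate block (0.0580), after thinning (0.207) or with upper-quartile factors (0.0708). Dut, the dUTPase that keeps uracil out of DNA, had 17.8, 15.9, 24.02 and 20.7 CPM in teNK, against 20.1, 21.2, 27.9 and 28.4 CPM in hNK. Per kilobase it was above Rrm1 in hNK (10.1 against 8.19 RPKM) and just below it in teNK (8.14 against 8.43 RPKM). This order rests on annotated exon lengths of 2410 bases for Dut and 11012 bases for Rrm1, and in CPM Rrm1 was higher in both groups. The log2 fold change of Dut was -0.29 ± 0.14 (95% interval -0.58 to 0.00, adjusted p = 0.0902). The groups overlapped, and the gene was called lower without hNK replicate 1, without teNK replicate 3, without a filter and with the replicate block.

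Changes among the polymerase and primase subunits were small: 3 of 7 were called higher and 0 lower (26.4% and 25.6% of all genes tested), with a median log2 fold change of 0.28. Pole (chr5:110286306-110337474, + strand), the catalytic subunit of the leading-strand polymerase epsilon, had 38.4, 41.7, 43.1 and 37.8 CPM in teNK, against 32.3, 22.9, 31.7 and 33.2 CPM in hNK. The groups did not overlap, hNK replicate 2 was the lowest, and the log2 fold change was 0.44 ± 0.10 (adjusted p = 0.00212). Its partner subunit Pole2 had 8.16, 6.92, 9.40 and 7.95 CPM in teNK, against 5.49, 6.27, 8.41 and 7.23 CPM in hNK, with overlap and a log2 fold change of 0.28 ± 0.16 that was not called. The ratio of Pole2 to Pole per kilobase was 0.782 ± 0.0928 in teNK and 0.897 ± 0.186 in hNK (SD, n = 4 each; exact permutation p = 0.229, adjusted 0.357).

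Pola1, the catalytic subunit of polymerase alpha, which extends the RNA primers, had 52.4, 54.03, 61.4 and 56.8 CPM in teNK, against 39.5, 38.5, 47.99 and 46.4 CPM in hNK. All teNK libraries were above all hNK libraries, with a log2 fold change of 0.40 ± 0.08 (adjusted p = 8.48e-04). Pola2, the accessory subunit of the same polymerase, had 33.6, 36.1, 32.1 and 32.4 CPM in teNK, against 40.3, 32.00, 35.8 and 34.1 CPM in hNK, which overlapped (log2 fold change -0.09 ± 0.08, not called). Of the primase, the catalytic Prim1 had 18.3 to 21.5 CPM in teNK and 14.6 to 20.8 CPM in hNK and rose by a log2 fold change of 0.35 ± 0.12 (adjusted p = 0.0193). That call was lost without hNK replicate 1, hNK replicate 2 or teNK replicate 1, and after thinning (adjusted p = 0.437). The large subunit Prim2 had 22.8, 25.97, 25.2 and 24.5 CPM in teNK, against 24.6, 24.3, 23.3 and 25.3 CPM in hNK, almost the same in all 8 libraries (log2 fold change 0.01 ± 0.08). Pold1, the catalytic subunit of the lagging-strand polymerase delta and the most abundant of the 7 at 7.24 RPKM in teNK and 7.83 RPKM in hNK, had 33.1, 33.3, 36.8 and 37.6 CPM in teNK, against 41.2, 34.1, 40.7 and 36.1 CPM in hNK. These values overlapped and were not called (log2 fold change -0.11 ± 0.08). In each of the polymerase epsilon, polymerase alpha and primase pairs among these 7 genes, the catalytic subunit was called and the partner was not. Polymerase delta differed: Pold1 was not called, while, outside the 7, Pold2 (0.69-fold, adjusted p = 5.44e-05) and Pold4 (0.76-fold, 0.00211) were called lower. Pold3 was called higher (1.22-fold, 0.00285). Of the other polymerase epsilon subunits, Pole3 was called lower (0.80-fold, 0.0108) and Pole4 was not called. A difference between partners was tested for Pole2 and Pole alone, as given above.

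Among the clamp, its loader, the flap and ligation enzymes and RPA, Pcna rose and most others stayed close to equal. Of these 9 genes, 2 were called higher and 0 lower (26.4% and 25.6% of all genes tested). Pcna (ENSMUSG00000027342, chr2:132249162-132253314, - strand), the sliding clamp that holds polymerases on DNA, had 208, 197, 223 and 209.6 CPM in teNK, against 106, 126, 142 and 124 CPM in hNK. The groups did not overlap, with a log2 fold change of 0.75 ± 0.08 (1.69-fold, 95% interval 1.5 to 1.89, adjusted p = 5.56e-07). It was the most abundant of all 46 genes, at 87.2 RPKM in teNK and 51.9 RPKM in hNK, and it made up 44.9% of the difference in their summed CPM. Pcna has near copies in the genome that can share reads: the copy Pcna-ps2 had 12.5 to 14.9 CPM in teNK and 7.78 to 10.2 CPM in hNK, and Pcna-ps1 had no read. Rpa2, the middle subunit of the RPA complex that coats single strands, had 43.4, 35.7, 36.95 and 36.1 CPM in teNK, against 28.5, 33.99, 32.98 and 32.5 CPM in hNK. Its groups did not overlap, with teNK replicate 1 the highest, and it was called at a log2 fold change of 0.25 ± 0.09 (adjusted p = 0.0221). The call was lost without hNK replicate 1 or teNK replicate 1, and after thinning (adjusted p = 0.0672). The largest RPA subunit, Rpa1, had 105, 103, 106 and 109 CPM in teNK, against 105, 108, 109 and 97.6 CPM in hNK, second to Pcna in this group by RPKM. The groups overlapped, and the log2 fold change was 0.02 ± 0.06 (95% interval -0.11 to 0.14).

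The clamp loader subunits Rfc2 to Rfc5 place PCNA on DNA, and none was called. Rfc2 had 60.1, 60.2, 61.1 and 61.1 CPM in teNK, against 62.2, 48.7, 58.4 and 52.03 CPM in hNK. Rfc3 had 11.8, 14.3, 15.9 and 14.8 CPM in teNK, against 11.8, 15.4, 15.2 and 12.6 CPM in hNK. Rfc4 had 12.8, 10.3, 13.7 and 10.7 CPM in teNK, against 10.2, 11.7, 12.2 and 12.6 CPM in hNK. In all 3 the groups overlapped, and Rfc2 was called higher without hNK replicate 1. Rfc5 had 30.7, 26.3, 30.2 and 28.7 CPM in teNK, against 25.8, 26.1, 32.7 and 29.4 CPM in hNK, also with overlap. Fen1, the nuclease that trims Okazaki fragment flaps, had 26.5, 23.6, 34.1 and 32.1 CPM in teNK, against 24.4, 27.3, 32.98 and 28.00 CPM in hNK. Lig1, the ligase that seals the fragments, had 44.4, 47.05, 54.1 and 48.8 CPM in teNK, against 45.9, 42.2, 49.1 and 55.1 CPM in hNK. Both overlapped between the groups. The log2 fold changes of these 6 genes and Rpa1 were 0.02 to 0.13, and their 95% intervals together reached from -0.23 to 0.31, so changes beyond that range were outside every interval.

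Origin loading and firing factors were mostly not called: 1 of 8, Mcm10, was called higher and 0 lower (26.4% and 25.6% of all genes tested), with a median log2 fold change of 0.21. Mcm10 (chr2:4989714-5012791, - strand), which helps the loaded helicase to open DNA and is not part of the MCM ring, had 6.91, 8.06, 10.1 and 7.49 CPM in teNK, against 3.91, 2.38, 6.60 and 5.42 CPM in hNK. The groups did not overlap, although hNK replicate 3 came close to teNK replicate 1, and the log2 fold change was 0.93 ± 0.24 (adjusted p = 0.00337). It was 1.37 against hNK replicates 1 and 2 alone and 0.42, not called, against hNK replicates 3 and 4 alone. The ratio of Mcm10 to the helicase subunit Mcm2 per kilobase was 0.136, 0.160, 0.168 and 0.126 in teNK, against 0.0673, 0.0438, 0.0902 and 0.0830 in hNK. The ratios did not overlap (exact permutation p = 0.0286, the smallest possible; adjusted 0.0714).

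Cdc6, a loader of the helicase, had 6.45, 9.97, 10.8 and 10.1 CPM in teNK, against 4.32, 3.73, 9.40 and 12.3 CPM in hNK. The hNK libraries spanned the whole teNK range, with replicates 1 and 2 below it and replicate 4 above it, and the log2 fold change of 0.47 ± 0.29 was not called; without hNK replicate 4 it was 0.80 and called, and it was also called in limma voom and without a filter. Cdt1, the other loader, had 44.2, 41.7, 45.6 and 49.1 CPM in teNK, against 44.5, 43.4, 49.3 and 38.1 CPM in hNK and overlapped (log2 fold change 0.04 ± 0.08). Cdc45, which joins the helicase when it fires, had 8.03, 10.9, 11.97 and 9.71 CPM in teNK, against 8.40, 6.83, 9.90 and 9.21 CPM in hNK, with overlap (log2 fold change 0.27 ± 0.16).

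The 4 subunits of GINS, which completes the active helicase, were not called. Gins1 had 2.44, 2.67, 3.62 and 2.98 CPM in teNK, against 1.66, 1.75, 3.46 and 2.89 CPM in hNK. Gins2 had 2.50, 1.84, 2.49 and 2.06 CPM in teNK, against 1.75, 1.35, 1.98 and 3.61 CPM in hNK. Both were scarce and overlapped, and Gins2 was the least abundant of all 46 genes in teNK at 0.543 RPKM. Gins3 had 8.10, 8.51, 9.40 and 6.96 CPM in teNK, against 8.90, 8.89, 8.91 and 10.5 CPM in hNK. Gins4 had 22.9, 22.3, 22.4 and 22.3 CPM in teNK, against 25.03, 25.1, 20.8 and 18.1 CPM in hNK, and at 16.7 RPKM in teNK and 16.5 RPKM in hNK it was the most abundant of the loading and firing genes. Gins3 and Gins4 overlapped as well. The log2 fold changes of the 4 subunits were 0.36, 0.14, -0.16 and -0.01 for Gins1 to Gins4. For the 7 uncalled loading and firing genes, the 95% intervals together reached from -0.46 to 1.08, so a change of 2-fold was outside the interval in 6 of the 7, Cdc6 being the exception.

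The MCM helicase itself was abundant in both groups at similar sums: its 6 subunits summed to 519 ± 51.3 CPM in teNK and 518 ± 66.1 CPM in hNK (SD, n = 4 each). One subunit, Mcm3 (chr1:20802968-20820312, - strand), was called, and it had 57.98, 58.3, 70.3 and 65.5 CPM in teNK, against 47.1, 43.8, 58.9 and 63.4 CPM in hNK. The groups overlapped and the call was close to the threshold (log2 fold change 0.26 ± 0.11, adjusted p = 0.0451). It was lost without hNK replicate 1, hNK replicate 2, teNK replicate 3 or teNK replicate 4, and also in DESeq2 (adjusted p = 0.0562), after thinning (0.0937) and with upper-quartile factors (0.0802). Mcm4 was the most abundant subunit, at 44.1 RPKM in teNK and 39.1 RPKM in hNK, and had 151, 148, 176 and 158 CPM in teNK, against 121, 136, 164 and 140.4 CPM in hNK. It overlapped and was not called (log2 fold change 0.18 ± 0.08, adjusted p = 0.0858), but was called higher without hNK replicate 3, without a filter and with the replicate block.

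The other 4 subunits had log2 fold changes below 0, and none was called. Mcm2 had 45.8, 45.7, 54.4 and 53.6 CPM in teNK, against 52.5, 49.2, 66.1 and 59.1 CPM in hNK. Mcm7 had 68.8, 70.3, 91.5 and 73.98 CPM in teNK, against 80.3, 78.3, 88.4 and 94.3 CPM in hNK. In both, the values overlapped (log2 fold changes -0.17 ± 0.09 and -0.16 ± 0.09). Mcm2 was called lower without hNK replicate 2, after thinning and with the replicate block, and Mcm7 without teNK replicate 3. Mcm5 had 51.8, 50.8, 60.7 and 53.1 CPM in teNK, against 46.98, 49.6, 63.99 and 63.6 CPM in hNK. Mcm6 had 105, 106, 135 and 123 CPM in teNK, against 101, 119.7, 146 and 139 CPM in hNK. These overlapped too, with log2 fold changes of -0.03 ± 0.10 and -0.10 ± 0.10. The 5 uncalled subunits had 95% intervals that together reached from -0.37 to 0.36. Against hNK replicates 3 and 4 alone, Mcm2, Mcm5, Mcm6 and Mcm7 were all called lower, while against hNK replicates 1 and 2 alone 2 subunits were called higher and 0 lower.

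**Figure D3:**
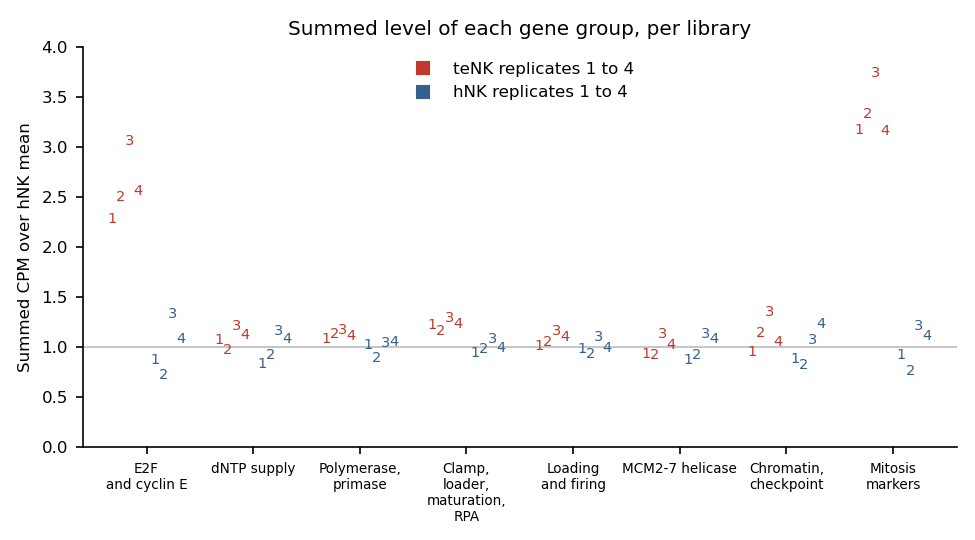
Summed CPM of each role divided by the mean of the 4 hNK libraries (linear axis), with the replicate number as the symbol. The E2F and cyclin E genes (52.6 to 70.6 CPM in teNK, 16.5 to 30.7 CPM in hNK) and the mitosis markers (552 to 653 CPM in teNK, 133 to 211 CPM in hNK) separate by far, and the helicase sums overlap.

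Of the 5 chromatin and checkpoint genes, Clspn rose, Chaf1b fell and 3 were not called. These shares, 20% each, lay near the 26.4% called higher and 25.6% called lower over all genes tested. Clspn (chr4:126556935-126593903, + strand), claspin, the adaptor through which ATR activates the checkpoint kinase CHK1 at stalled forks, had 14.2, 17.7, 23.9 and 16.3 CPM in teNK, against 7.40, 4.53, 9.40 and 10.1 CPM in hNK. The groups did not overlap, and the log2 fold change was 1.27 ± 0.21 (2.42-fold, adjusted p = 7.67e-05). Chek1, which encodes CHK1, had 7.24, 7.56, 9.40 and 6.57 CPM in teNK, against 7.23, 6.43, 10.1 and 12.6 CPM in hNK. It overlapped, hNK replicates 3 and 4 being the highest, and was not called (log2 fold change -0.18 ± 0.19). Brca1, which protects stalled forks and repairs broken ones, had 18.4, 22.1, 22.3 and 21.3 CPM in teNK, against 18.2, 15.96, 19.8 and 21.9 CPM in hNK, with overlap (log2 fold change 0.17 ± 0.11, not called) and 2.47 RPKM in teNK against 2.22 RPKM in hNK.

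The chromatin assembly factor CAF-1 places new histones behind the fork, and 1 of its 2 genes measured here was called. Chaf1b (ENSMUSG00000022945, chr16:93883901-93906115, + strand) had 5.20, 6.35, 7.31 and 5.20 CPM in teNK, against 9.81, 11.6, 9.24 and 10.1 CPM in hNK. Every teNK library was below every hNK library, and it was the 1 replication gene called lower, with a log2 fold change of -0.77 ± 0.15 (0.58-fold, adjusted p = 3.70e-04). Leaving out any 1 library kept it between -0.87 and -0.70. Chaf1a, the large subunit, had 11.5, 14.03, 17.03 and 12.6 CPM in teNK, against 9.56, 10.2, 14.8 and 18.1 CPM in hNK. These values overlapped and the log2 fold change of 0.13 ± 0.18 was not called; the difference between the subunits was not tested.

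Most abundant replication genes had smaller log2 fold changes than the scarce regulators. Across the 46 genes, the log2 fold change and the log2 RPKM in hNK had a Pearson r of -0.53 and a Spearman rho of -0.57. Genes share their libraries and the hNK level enters both measures, so this is a description of these genes without a test. Pcna was the exception among abundant genes. The order of the genes by level was otherwise similar in the groups, with a Spearman rho of 0.97 between log2 RPKM in teNK and in hNK over the 46 genes. The coefficient of variation between libraries had a median of 11.7% in teNK and 15.4% in hNK over the 46 genes. It reached 23.4% for Clspn in teNK and 64.6% for E2f8 in hNK.

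**Figure D4:**
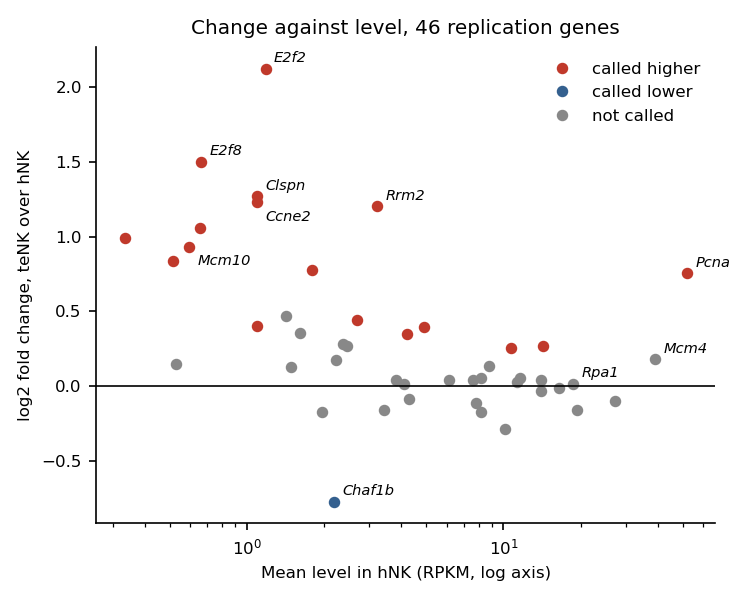
Log2 fold change of teNK over hNK against the mean level in hNK (RPKM, log axis) for the 46 genes, coloured by call. Scarce genes such as E2f2 and E2f8 lie highest, most genes above 10 RPKM lie near 0, and Pcna stands apart at 51.9 RPKM and a log2 fold change of 0.75.

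In 14 of the 46 genes an exon overlaps a gene on the other strand, and the sources used here do not name the strand setting of the counting, so such reads may not be told apart. E2f7, E2f8, Tk1, Pole and Ccne2 are the 5 of them called higher, and 12 of the 17 genes called higher have no such overlap. Mcm7, Pole2 and Rpa1 overlap a gene on their own strand.

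Lists of related genes placed these 46 in the wider cell cycle. All 20 mitosis markers were called higher and 0 lower (26.4% and 25.6% of all genes tested), at a median log2 fold change of 1.36. Of them, 15 were called and at least 2-fold higher (8.28% of all genes). They summed to 585 ± 47.6 CPM in teNK and 174 ± 34.7 CPM in hNK (SD, n = 4 each). The 3 with the smallest adjusted p were Prc1, a bundler of the central spindle (3.64-fold, adjusted p = 1.75e-10), Cenpa, the centromeric histone (2.56-fold, 5.87e-10), and Cenpf, a kinetochore protein (4.45-fold, 1.49e-08). Against hNK replicates 3 and 4 alone 16 of the 20 were called higher, and 18 against hNK replicates 1 and 2 alone. The median of the 46 replication genes, 0.16, lay well below that of the mitosis markers.

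**Figure D5:**
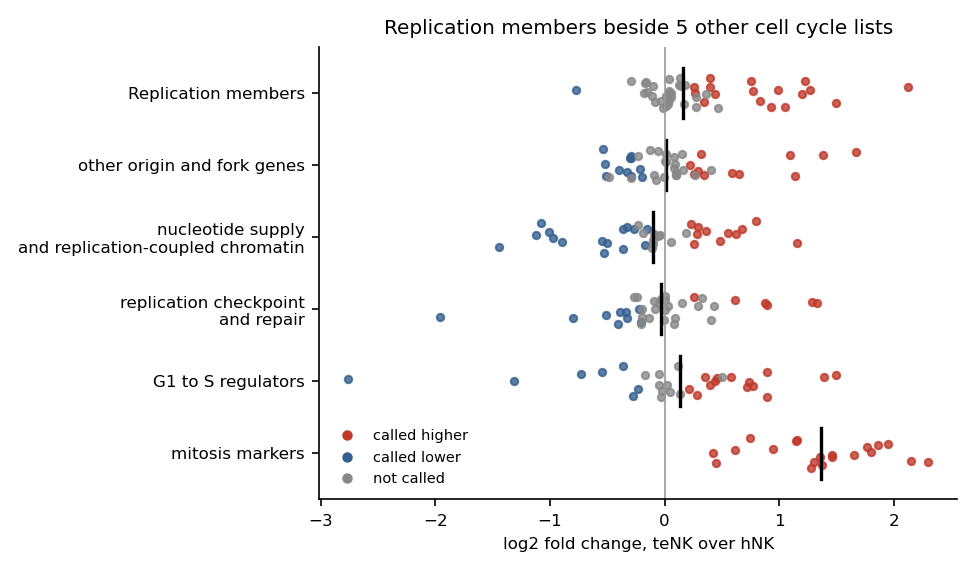
Log2 fold change of teNK over hNK for each tested gene of the 46 replication genes and of 5 related lists (points, coloured by call), with the median of each list as a black bar. The mitosis markers have a median of 1.36, and the other lists have medians from -0.11 to 0.16.

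Of 43 other origin and fork genes tested, 11 were called higher and 11 lower (25.6% each, against 26.4% and 25.6% of all genes), with a median log2 fold change of 0.02. The higher ones were led by Top2a, the topoisomerase that untangles copied DNA (2.60-fold, adjusted p = 1.45e-06), Dtl, which targets CDT1 for destruction (2.20-fold, 4.93e-06), and Dbf4, the activator of the CDC7 kinase (1.5-fold, 9.34e-06). The lower ones were led by Chtf8, part of an alternative clamp loader (0.70-fold, adjusted p = 2.38e-06), Pold2, a subunit of polymerase delta (0.69-fold, 5.44e-05), and Mtbp, which acts in origin firing (0.70-fold, 1.81e-04). Of 36 genes of nucleotide supply and replication-coupled chromatin, 11 were called higher (30.6%) and 15 lower (41.7%), with a median of -0.11. Samhd1, which breaks down deoxynucleotides (2.23-fold, adjusted p = 2.06e-10), Dnmt1, which copies DNA methylation (1.54-fold, 3.32e-07), and Mms22l, a fork repair factor (1.47-fold, 2.97e-05), were higher. The nucleotide synthesis enzymes Cad of the pyrimidine route (0.51-fold, adjusted p = 9.88e-09), Gart of the purine route (0.47-fold, 1.69e-07) and Ctps, CTP synthase (0.50-fold, 3.21e-05), were lower.

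Of 37 replication checkpoint and repair genes, 6 were called higher (16.2%) and 9 lower (24.3%), with a median of -0.03. Bard1, the partner of BRCA1 (2.43-fold, adjusted p = 2.53e-07), Brip1, a helicase that binds BRCA1 (2.52-fold, 2.76e-05), and Fanca of the Fanconi anaemia core (1.84-fold, 2.30e-04) were higher. Blm, the Bloom helicase (0.58-fold, adjusted p = 2.45e-08), its partner Rmi2 (0.26-fold, 1.12e-06) and Rad18, which ubiquitinates PCNA (0.70-fold, 3.95e-05), were lower. Of 31 G1 to S regulators, 14 were called higher (45.2%) and 7 lower (22.6%), with a median of 0.13. Cdkn2d, an inhibitor of CDK4 and CDK6 (2.63-fold, adjusted p = 3.35e-09), Ccnd3, cyclin D3 (1.65-fold, 1.87e-08), and Ccna2, cyclin A of S phase and G2 (2.82-fold, 7.13e-06), were higher. Cdkn1a, the CDK inhibitor p21, had 5.62 ± 0.687 CPM in teNK and 38.3 ± 1.38 CPM in hNK (SD, n = 4 each) (0.15-fold, adjusted p = 1.92e-12). Cdk6 (0.40-fold, adjusted p = 9.86e-08) and E2f6, a repressive E2F (0.60-fold, 2.23e-06), were lower as well.

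Other cells in the sort were looked at through marker genes. The 10 NK markers summed to 9170 to 9667 CPM in teNK and 5362 to 6024 CPM in hNK, with 8 called higher and 1 lower. B cell markers (9 of 10 called higher) summed to 130 to 159 CPM in teNK and 85.8 to 123 CPM in hNK. Most of that sum was Ighm, which was not called (96.5 CPM in teNK, 95.8 CPM in hNK), while the others lay near 0 in hNK, as in Cr2 (14.5 CPM in teNK, 0.12 CPM in hNK) and Ms4a1 (8.02 CPM in teNK, 0.42 CPM in hNK). Platelet and megakaryocyte markers (10 of 12 higher) summed to 248 to 396 CPM in teNK and 98.6 to 137 CPM in hNK. In hNK most of that sum was Itgb3, which was not called (80.8 CPM in teNK, 92.0 CPM in hNK). Several others lay near 0 in hNK, as in Vwf (40.4 CPM in teNK, 0.46 CPM in hNK) and Tubb1 (32.2 CPM in teNK, 0.77 CPM in hNK). Ppbp had 106 CPM in teNK and 18.3 CPM in hNK. T cell markers (1 of 11 higher, 2 lower) summed to 259 to 275 CPM in teNK and 273 to 314 CPM in hNK, mostly Trbc1, with Cd4 and Cd8a near 0 in both groups. Stem and progenitor markers (2 of 10 higher, 2 lower) summed to 98.1 to 135 CPM in teNK and 196 to 317 CPM in hNK. Nearly all of that was Kit (110.5 CPM in teNK, 265 CPM in hNK), which sets the direction of the sum. Kit and Meis1 were called lower, while 2 scarce genes went the other way. They were Gata1 (1.77 CPM in teNK, 0.02 CPM in hNK) and Gata2 (2.19 CPM in teNK, 0.06 CPM in hNK). Erythroid markers (1 of 13 higher, 1 lower) summed to 53.3 to 59.6 CPM in teNK and 54.9 to 103 CPM in hNK, mostly Tfrc, with Hba-a2 at 0 in every library. Dendritic cell markers (2 of 9 higher) summed to 68.3 to 89.3 CPM in teNK and 10.4 to 19.96 CPM in hNK, mostly Itgax, and basophil and mast cell markers (2 of 9 higher) to 199 to 229 CPM in teNK and 59.4 to 78.3 CPM in hNK, mostly Cma1. Macrophage and monocyte markers (1 of 10 higher, 1 lower) summed to 371 to 429 CPM in teNK and 543 to 745 CPM in hNK. Nearly all of it was Ccr2, which sets the direction of the sum (390 CPM in teNK, 665 CPM in hNK), and Lyz2 went the other way (6.95 CPM in teNK, 0.46 CPM in hNK). Plasma cell markers (2 of 7 higher, 1 lower) summed to 95.4 to 109 CPM in teNK and 118 to 128 CPM in hNK, mostly Xbp1, which was lower, while Igkc was higher (19.6 CPM in teNK, 1.4 CPM in hNK). Neutrophil markers, of which none passed the filter, summed to 1.65 to 7.90 CPM in teNK and 0 to 0.165 CPM in hNK. Of the 6 genes of the sort markers and the CD3 complex, 4 were called higher: Ptprc, Itga2, Cd3d and Cd247. Cd3d averaged 4.91 CPM in teNK and 2.25 CPM in hNK. Cd3g (23.0 CPM in teNK, 20.2 CPM in hNK) and Cd3e (1.43 CPM in teNK, 2.18 CPM in hNK) were not called. The part of these cells in the replication values was not tested.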

How the data were processed

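The authors deposited 1 file of whole-number read counts per Ensembl gene for each of 8 libraries, not normalized. Per the submitters' processing notes, the build was GRCm38 and the tools were HISAT2 2.1.0, SAMtools and HTSeq, and per the labels' protocols the kit was stranded and for mRNA. The annotation and strand setting of the counting are not given in the sources used here. Symbols, coordinates and exon lengths came from GENCODE M21 on GRCm38. Lines for reads in no gene (32.3% to 41.2% of reads) and ambiguous reads (1.52% to 2.07%) stayed out of library sizes and tests.

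Counts were tested in R 4.3.3 with edgeR 4.0.16: filterByExpr by group (13903 genes of the 27313 with a read), TMM factors, quasi-likelihood F tests with group as the one term, and Benjamini-Hochberg adjustment over all genes tested. Dividing a log2 fold change by the square root of its F value gave the SE. Ratios of 5 gene pairs were compared by exact two-sided permutation over libraries. Alternatives were limma voom (limma 3.58.1), DESeq2, other scalings and filters, thinning, a replicate block, a test for more than 1.5-fold, and leaving out each library. The scripts were tested on simulated data. Counting error sets only a floor: 3 counts in a library, the limit that a count of 0 allows, are 0.19 to 0.54 CPM here. Libraries of the same group differed by more than counting error, with a chi-square per degree of freedom of 3.51 to 11.3 between pairs. Repeat runs are mentioned for teNK libraries and for no hNK library, so run layout and group cannot be told apart.

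The 46 genes, the lists and the motifs were chosen with earlier results of these data known. By the naming rule, values in every library were given for, in each role, the 2 called genes with the largest absolute log2 fold change, the 1 with the highest mean RPKM, and every gene not called or called against most of its role. The others were given by fold change or range, and from each related list up to 3 genes with the smallest adjusted p in each direction. Pold3, Pold4, Pole3 and Pole4 were named beyond this rule.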

Additional observations from a re-analysis of the deposited data

Results flagged for a closer look

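In 7 of the 92 groups of 4 libraries examined (46 genes in teNK and in hNK), 1 library lay far from the other 3 by Dixon's ratio of gap to range at the 95% level, which chance gives in about 1 in 20 groups. Among genes called higher, E2f7 had 6.92 CPM in teNK replicate 2, against 5.50 to 5.62 CPM in the other teNK libraries, and Rpa2 had 43.4 CPM in teNK replicate 1, against 35.7 to 37.0 CPM in the others. Pole had 22.9 CPM in hNK replicate 2, below the 31.7 to 33.2 CPM of the other hNK libraries. Tk1 had 4.34 CPM in hNK replicate 4 (others 1.91 to 2.30 CPM), and Prim1 had 20.8 CPM in the same library (others 14.6 to 15.2 CPM). Without hNK replicate 4, Tk1 had a log2 fold change of 1.08 and Prim1 of 0.46, both still called. Of genes not called, Gins3 had 10.5 CPM in hNK replicate 4, against 8.89 to 8.91 CPM in the other hNK libraries. Gins4 had 22.9 CPM in teNK replicate 1, against 22.3 to 22.4 CPM in the other teNK libraries, which lay close together.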

How the results depend on the processing

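Of 874 recomputed log2 fold changes (46 genes under 19 alternatives), 759 kept their direction and side of the threshold, 43 lost and 26 gained a call, and 46 changed sign, 0 of them for a called gene. Pcna, E2f2, E2f7, E2f8, Clspn, Rrm2 and Ccne2 kept their call under all 19, and Pole, Pola1, Chaf1b and Ccne1 lost it only in the test for more than 1.5-fold. The labels do not say that equal replicate numbers pair the samples. Deviations from the group mean correlated at -0.12 to 0.17 between libraries of the same number, which cannot settle pairing. With the replicate block, 17 of the 46 genes were called higher and 3 lower (3581 and 3401 of all 13903 genes tested). The cause of the changes below was not tested, except that the 1.5-fold test asks for more.

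Of the 46 genes, 10 were higher and 7 lower against hNK replicates 3 and 4 alone (3296 and 3056 of all 14514 genes). In the 1.5-fold test 7 were higher and 0 lower (1297 and 850 of all 13903 genes). Without a filter 2 were lower (3787 of all 27313 genes), and after thinning 2 were lower (2846 of all 11971 genes). Leaving out 1 library gave 14 to 18 higher and 1 to 3 lower. There were 2 lower without hNK replicate 1 or 2 and 3 without teNK replicate 3. Over all 14094 to 14254 genes tested, leaving out 1 library gave 3380 to 3766 higher and 3203 to 3497 lower. In the 1.5-fold test, 4 origin and fork genes were higher and 0 lower, 1 and 5 of nucleotide supply and chromatin, 2 and 2 of checkpoint and repair, and 4 and 2 G1 to S regulators. Origin and fork genes called lower were 6 against hNK replicates 1 and 2 alone; nucleotide and chromatin genes were 9 lower there and 6 higher against hNK replicates 3 and 4 alone.

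The sign changes were in uncalled genes. Against hNK replicates 1 and 2 alone they were Mcm5 (0.16), Mcm6 (0.079), Rpa1 (-0.0094) and Chek1 (0.16). Against hNK replicates 3 and 4 alone they were Cdc6 (-0.22), Gins1 (-0.14), Gins2 (-0.32), Gins4 (0.20), Rrm1 (-0.10), Rfc4 (-0.072), Rfc5 (-0.11), Fen1 (-0.085), Lig1 (-0.11) and Chaf1a (-0.26). After thinning they were Gins2 (-0.029), Gins4 (0.0076), Prim2 (-0.032) and Rfc4 (-0.24), and with upper-quartile factors Prim2 (-0.020), Lig1 (-0.0070) and Rpa1 (-0.019). Gins4 was 0.011 in DESeq2 and 0.0066 with the replicate block. Leaving out 1 library gave ranges of -0.014 to 0.093 for Cdt1, -0.0042 to 0.30 for Chaf1a, -0.33 to 1.6e-05 for Chek1, -0.027 to 0.15 for Fen1, -0.063 to 0.43 for Gins2, -0.088 to 0.050 for Gins4, -0.037 to 0.091 for Lig1, -0.11 to 0.039 for Mcm5, -0.010 to 0.055 for Prim2, -0.042 to 0.13 for Rfc3, -0.030 to 0.10 for Rfc4, -0.0066 to 0.11 for Rfc5, -0.016 to 0.033 for Rpa1 and -0.025 to 0.13 for Rrm1.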
